A study of Anguilla anguilla with 45 samples.

Results

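The 80 contigs described here are assembled eel transcripts whose centred ratio to a common reference pool lay close to 0 in caudal fin and in liver alike. They were taken from the 512 of 992 contigs on the array that had at least 5 values on the 10 fin arrays of control and Certes eels, at least 5 values on the 10 liver arrays and at least 2 values on the 5 Garonne arrays. A contig was a member where its mean log2 ratio over those fin arrays and its mean over those liver arrays both lay between -0.5 and 0.5. The other 432 contigs with enough values served for comparison. The ratios of these 20 control, Certes and liver arrays chose the members, so their closeness to the reference there is not a result.

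The study measured transcripts of the European eel, Anguilla anguilla, on 45 2-colour arrays to see whether Cd (cadmium) and PCBs (polychlorinated biphenyls) leave a trace in a tissue that can be taken without killing the fish. Each of 9 groups had 5 arrays. Cd fins and Cd livers came from laboratory eels held in water with Cd at 4 µg/L, and control fins and control livers came from unexposed laboratory eels. The 50 ng/g and 300 ng/g PCB fins came from laboratory eels given PCBs in the diet, at a dose whose basis the labels abbreviate as PS without explaining it. Gironde fins, Garonne fins and Certes fins came from wild eels of those 3 sites. All fins were caudal fins. The sources used here do not give exposure times, ages or sexes. On every array the sample carried Cy3 and the same reference carried Cy5. That reference pooled RNA of 30 wild eels caught at Certes, with 15 eels per year from 2 years, and its tissue is labelled as liver, so a ratio in fin compares fin with liver. Every deposited array is centred, so a log2 ratio of 0 is the median ratio of the contigs that the array measured and need not be the pool's own level. Near, above and below the reference are meant in that sense throughout. Positive values were taken as higher in the sample than in the pool. This direction is an assumption, because the labels do not say which dye is on top of the ratio. With the ratio the other way up, higher and lower would change places throughout. The window that defines the members is the same in either direction.

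Liver is a main organ in which fish transform and store contaminants. Metallothioneins bind Cd there, and PCBs that activate the aryl hydrocarbon receptor induce detoxifying enzymes. The caudal fin is skin, connective tissue and bony rays, and a clip of it can be taken from a living fish. On arrays with a common reference, groups are compared through their ratios to the same pool. The members were chosen partly on Cd livers and wild Certes fins, so they are not a baseline from unexposed animals alone.

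The contigs carry numbers and no gene names, and 0 of them matched the gene table used here. No sequence, function or tissue marker can therefore be given, and the labelled tissues could not be checked against marker genes. The members are described by their ratios, their missing values and their behaviour across groups.

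By the rule, member means ran from -0.48 to 0.45 in fin, with a median of -0.03, and from -0.49 to 0.49 in liver, with a median of 0.04. The fin mean was above 0 in 36 members and below 0 in 44, and the liver mean was above 0 in 43 and below 0 in 37. Just inside the fin limits lay means of -0.48 and 0.45, and just outside lay -0.52 and 0.51. In liver the means just inside were -0.49 and 0.49, and those just outside were -0.51 and 0.51. Among the 512 contigs the neighbouring combinations held 36 to 93 contigs. Near the reference in fin and above it in liver were 93 contigs, near in fin and below in liver 57, below in fin and near in liver 62, and above in fin and near in liver 36.

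**Figure D1:**
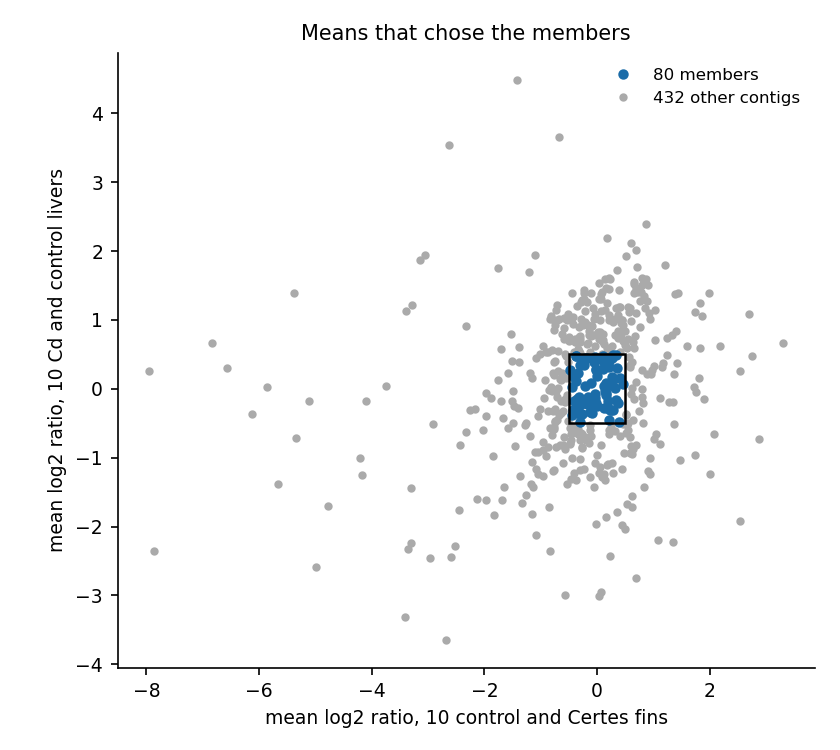
Mean log2 ratio over the 10 control and Certes fins (horizontal axis) against the mean over the 10 Cd and control livers (vertical axis) for the 512 contigs with enough values. The box marks the window from -0.5 to 0.5 that holds the 80 members in blue, and the other 432 contigs, in grey, reach fin means of -7.95 and 3.30.

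A mean near 0 did not always come from single values near 0. Of the 1585 member values on the 20 arrays that chose them, 62.3% lay within 0.5 of the reference and 8.52% lay more than 1 away. In 18 members every one of these values was within 1 of the reference. In 34 members the mean of each of the 4 groups, Cd livers, control livers, control fins and Certes fins, lay in the window. In 7 members at least 1 of these values was more than 2 from the reference. The clearest case was contig_17367, whose log2 ratios were -1.88, -1.26, -1.26, -1.30 and -1.33 in Cd livers and -0.86, -0.76, -1.60, 11.1 and -0.48 in control livers. All of its liver values except that of control fish 9 were below 0, so that its liver mean of 0.04 is close to none of them. Another member, contig_18019, chosen here after its values were seen, had the same shape, at 9.72 in the liver of control fish 9 and between -1.45 and -0.39 in the other 9 livers. The SD over the 10 fin arrays had a median of 0.48 in members, against 0.56 in the other contigs. Over the 10 liver arrays it was 0.48 in members, against 0.54 in the others.

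Membership also depended on the centring of the arrays. Each deposited array has a median of 0 over the contigs that it measured. When the arrays were instead centred on the contigs measured by every array of the tissue, 65 in fin and 547 in liver, the same rule took 77 contigs, and 37 of these were among the 80.

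Across the 45 arrays, 21.1% of all values were missing. Members had values on 33 to 45 arrays, with a median of 42, and the other 432 contigs had the same median. On Gironde arrays 41 to 66 of the 80 members had a value, on Garonne arrays 59 to 77, on 50 ng/g PCB arrays 59 to 80 and on 300 ng/g PCB arrays 51 to 80. Cd fins had 70 to 80, control fins 78 to 80, Certes fins 77 to 80, Cd livers 80 on each array and control livers 74 to 80. Of 990 pairs of arrays, 9 correlated below -0.3 over all contigs, down to -0.53 between fish 26 at 50 ng/g and fish 33 at 300 ng/g PCBs, and fish 26 was in 7 of the 9. The labels name the same dyes for every array but not which dye is on top of the deposited ratio, so they do not settle the sign of a single array. The deposited signs were kept, and counts with the sign of fish 26 or of Gironde eel A306 turned are given as alternatives. The labels do not say that fin and liver arrays with the same fish number come from the same eel, and the p-values measure only the spread between arrays.

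The ratios in Cd, 50 ng/g PCB, 300 ng/g PCB, Gironde and Garonne fins did not enter the rule, apart from the number of values on Garonne arrays. On these 25 arrays 45.5% of 1757 member values lay within 0.5 of the reference, against 34.5% of 9255 values of the other 432 contigs. Group means in the window were found for 50 of 80 members in Cd fins, 41 of 80 in 50 ng/g PCB fins, 43 of 79 in 300 ng/g PCB fins, 33 of 77 in Gironde fins and 31 of 80 in Garonne fins. In Cd fins that is 62.5% of the members, against 44.4% of the other contigs, and in 50 ng/g PCB fins 51.2%, against 52.6%. In 300 ng/g PCB fins it is 54.4% of the members, against 35.2% of the others, in Gironde fins 42.9%, against 37.2%, and in Garonne fins 38.8%, against 25.2%. By group means, only in 50 ng/g PCB fins was the members' share not the larger. By single values, averaged over the 5 arrays, it was also not the larger in Gironde fins, at 27.2%, against 29.6% of the other contigs. In 50 ng/g PCB fins that share was 40.2%, against 43.4%. These differences were not tested. The rule had kept only contigs with a mean near the reference over control and Certes fins. A larger share near it in other fins can therefore follow from the choice. Across the 5 groups, 2 members had all 5 means in the window, 8 had 4, 31 had 3, 26 had 2, 11 had 1 and 2 had none. Of the other contigs 4 had all 5 means there, which is 0.926%.

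**Figure D2:**
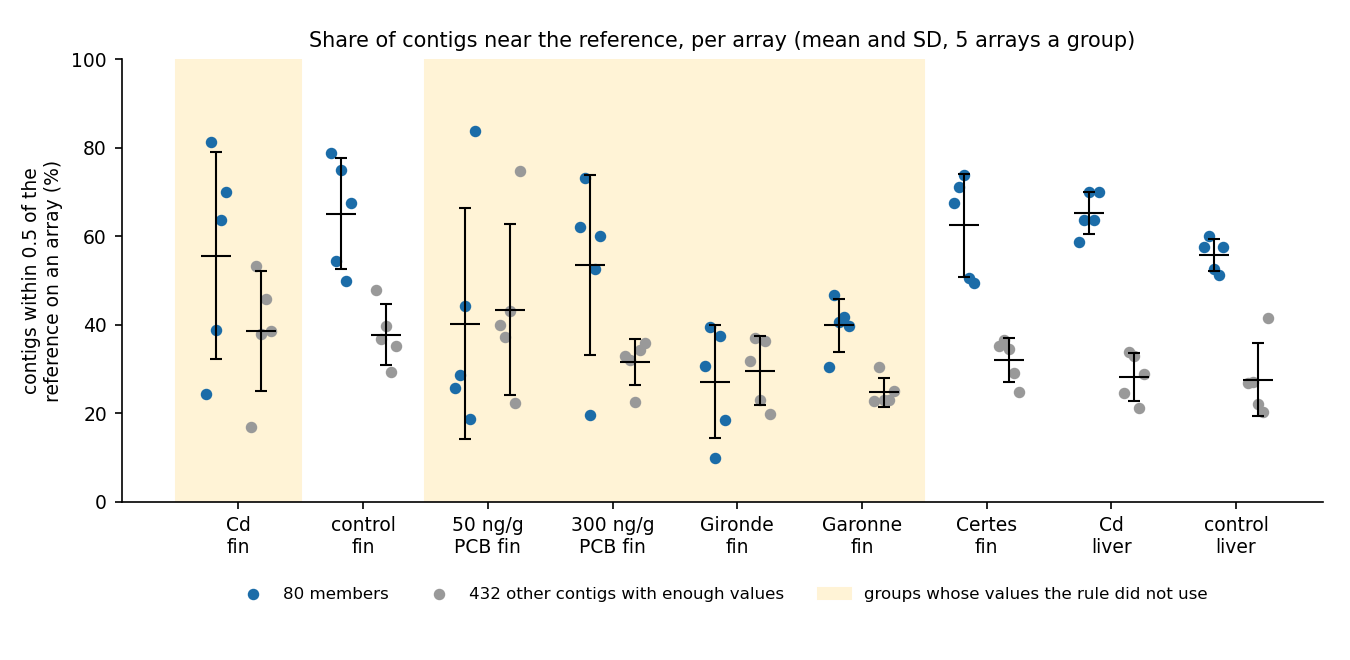
Share of contigs within 0.5 of the reference on each array (vertical axis, percent), for the 80 members in blue and the other 432 contigs in grey, by group, with the mean and SD of 5 arrays. Shading marks the 5 fin groups whose ratios the rule did not use. The members' share was 9.76% to 39.4% on Gironde arrays, where that of the other contigs was 19.9% to 37.1%. On Garonne arrays it was 30.5% to 46.8% in members and 22.7% to 30.3% in the other contigs.

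Single arrays differed widely within some of these groups. The median of the members with a value was 1.28 on the array of Gironde eel A315, against -0.64 to -0.12 on the other 4 Gironde arrays. In 50 ng/g PCB fins it was -0.77, -0.79, 0.17, 1.15 and -0.11 for fish 25 to 29. In 300 ng/g PCB fins it was 1.32 for fish 33, which had values for 51 members, and -0.26 to 0.35 for the others. The 5 Garonne arrays had members' medians of 0.80, 0.49, 0.35, 0.19 and 0.37, all above 0. In the other 432 contigs the medians on those Garonne arrays were -0.06, 0.15, 0.04, -0.04 and -0.06. For Cd fins the members' medians lay between -0.21 and 0.03, but the median size of a ratio was 1.50 in fish 45 and 0.26 to 0.66 in the other 4 fish.

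**Figure D3:**
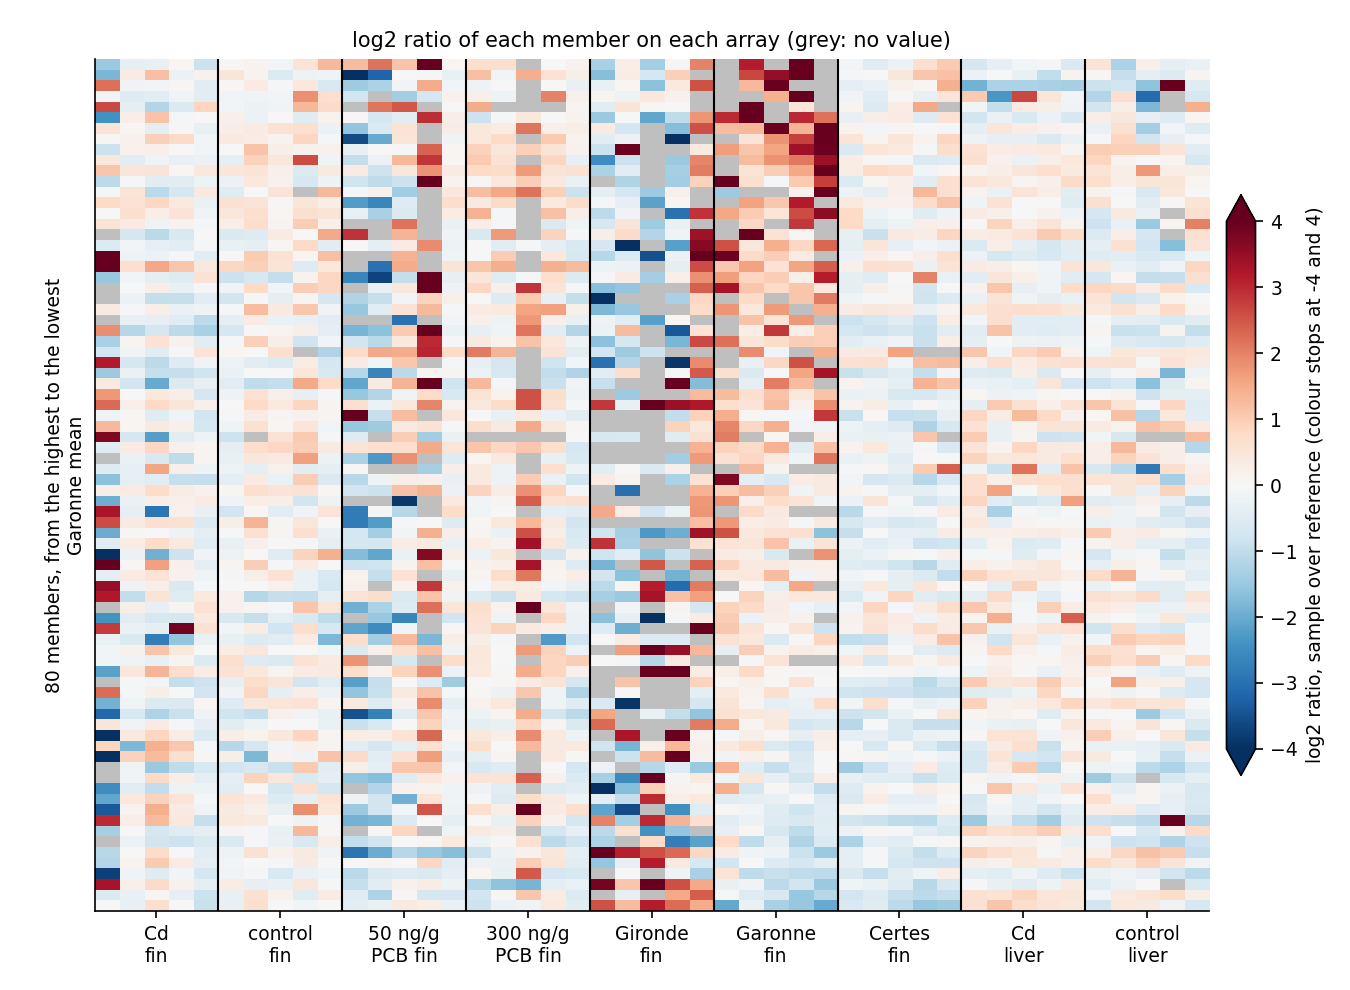
Log2 ratio of each of the 80 members (rows, from the highest to the lowest Garonne mean) on each of the 45 arrays (columns, by group); red is higher and blue lower than the reference, grey has no value, and colour stops at -4 and 4. Control fins, Certes fins and both liver groups are pale by the rule, while Garonne arrays are red over much of the upper rows and Gironde arrays hold values in both directions with many gaps.

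In Garonne fins most of the members called were higher than the reference. In limma's test of the group mean against the reference, with Benjamini-Hochberg adjustment over all 563 contigs tested, 20 of the 80 members were higher than the reference and 2 were lower. Over all contigs tested, 21.8% were higher and 24.5% lower. The members' share of higher calls, 25.0%, was thus near the background, and their share of lower calls, 2.50%, was far under it. Contigs far below and far above the reference in control and Certes fins had been left out by the rule. Fewer calls in either direction can follow from the choice, and its part in the split between higher and lower calls was not tested. The Garonne mean was above 0 in 64 members and below 0 in 16, with a median of 0.68 over members and 0.18 over all contigs tested. The 20 members past the threshold had means of 0.93 to 4.80, with a median of 2.14, and 19 of them had no Garonne value below 0. Calls were made in 5 of 8 members with 2 Garonne values, 2 of 11 with 3, 5 of 9 with 4 and 10 of 52 with all 5. The part of the missing values in these calls was not tested. With the deposited values more members passed in Garonne fins, 22, than in Gironde fins, 13, but after scaling the arrays to one spread the counts were 12 and 26, and after quantile normalization 12 and 17. Over all contigs tested in Gironde fins, only 5.91% were higher and 2.96% lower with the deposited values, far under the Garonne shares. The order of these counts is therefore not read as particular to the members.

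The highest Garonne means belonged to contigs with few Garonne values. For contig_25453 the log2 ratios were 2.66, 3.52 and 7.22 in Garonne eels A359, A360 and A362, and no value was given for the other 2. Its ratios in control fins were 0.47, 0.14, -0.54, -0.22 and -0.19, and in Certes fins -0.09, 0.00, 0.44, 1.11 and 1.16. Every Garonne value was above all 10 of these. The Garonne mean was 4.47 ± 0.75 (SE, limma, adjusted p = 1.54e-05). This SE, like every limma SE given here, rests on 1 variance per contig shared by all groups of the fit. The SD of the 3 Garonne values was 2.42. For contig_4605 only eels A359 and A362 had a value, 3.14 and 6.45, with a mean of 4.80 ± 0.82 (SE, limma, adjusted p = 2.19e-05). Its control and Certes fins lay between -0.49 and 1.30, and 50 ng/g PCB fish 28 stood at 5.16. With 1 of its 2 arrays left out it could not be tested.

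The 2 members lower than the reference in Garonne fins were contig_14486 and contig_26563. The ratios of contig_14486 were -2.04, -0.26, -1.30, -1.50 and -2.02 in Garonne eels A353 to A365, with a mean of -1.42 ± 0.31 (SE, limma, adjusted p = 0.000297). All 5 were below 0, but Certes fins, which the rule had averaged with control fins, were at -0.60, -0.49, -1.05, -1.53 and -1.43, and the 2 sites overlapped. Control fins of this contig ran from -0.29 to 0.64. For contig_26563 the Garonne mean was -0.78 ± 0.33 (SE, limma, adjusted p = 0.0499). Certes fins of this contig ran from -1.06 to -0.51, with a mean of -0.83, and overlapped its Garonne fins. Its control fins had a mean of 0.06. Its call was lost when eel A359, A360, A362 or A365 was left out, with means of -0.85, -0.82, -0.60 and -0.69.

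The 20 members higher in Garonne fins were picked by their Garonne values, so that lower values in other groups follow from the choice, and their means there are given as a description. The median of their group means was 0.60 in 300 ng/g PCB fins, where it was 0.29 over all members tested, and 0.15 in 50 ng/g PCB fins, where it was -0.18. It was 0.01 in Cd fins, where it was -0.08 over all members, and -0.29 in Gironde fins, where it was -0.18. Group means within 0.5 of the reference were found for 6 of the 20 in 300 ng/g PCB fins, 10 in 50 ng/g PCB fins, 17 in Cd fins and 12 in Gironde fins.

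The count in Garonne fins moved with the centring and with the other groups in the fit. With arrays centred on the complete contigs the median over all contigs tested was 0.85 and that over members 1.34, and 46 members were higher and 1 lower, while over all contigs 40.5% were higher and 16.7% lower. The distance between the medians of members and of all contigs was 0.50 with the deposited values and 0.50 after recentring. Recentring shifts every contig of an array by the same amount, so this distance could hardly change. The count in both directions together was 12 of 61 members with at least 4 values a group, where 41.4% of all contigs passed. It was 12 of 80 with arrays scaled to one spread, beside 25.4% of all contigs, and 12 of 80 with quantile normalization, beside 25.0%. With Cd fish 45 and all Gironde and 50 ng/g PCB arrays left out of the fit 38 of 80 passed, beside 64.1% of all contigs.

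**Figure D4:**
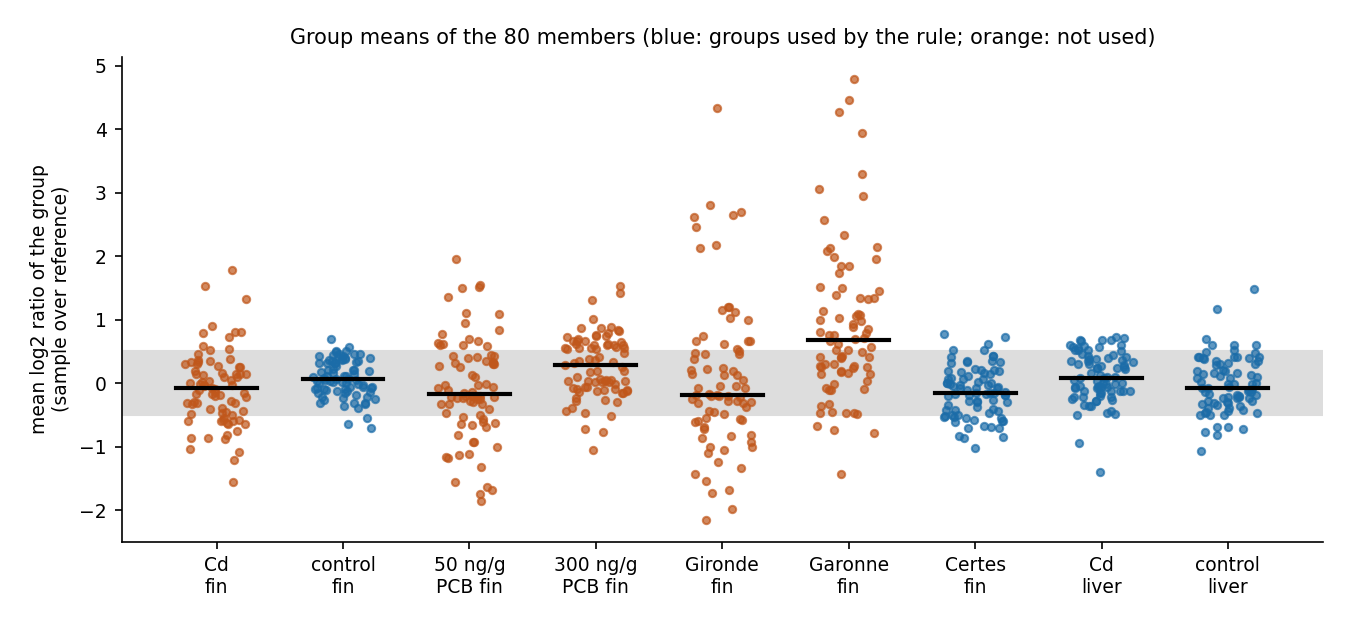
Mean log2 ratio of each of the 80 members in each group (vertical axis), with the median of the members as a black line and the window from -0.5 to 0.5 in grey; blue groups entered the rule and orange groups did not. Garonne means reach 4.80 and have the highest median, 0.68, and Gironde means spread from -2.15 to 4.33 around a median of -0.18.

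In Gironde fins members passed in both directions. Of 77 members tested by limma against the reference, 8 were higher and 5 lower, which is 10.4% and 6.49%, where all 947 contigs tested gave 5.91% and 2.96%. The 8 higher members had means of 2.13 to 4.33 and the 5 lower ones means of -2.15 to -1.33. No Gironde value was below 0 in 7 of the 8 higher members, and none was above 0 in 3 of the 5 lower ones. The median Gironde mean was -0.18 over members and -0.04 over all contigs tested.

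Among the higher members, contig_26223 had values in 3 Gironde eels, 6.58, 6.13 and 0.28 in eels A306, A310 and A315, with a mean of 4.33 ± 0.67 (SE, limma, adjusted p = 2.42e-05). The SD of these 3 values was 3.51, so the SE and p do not measure the spread of the Gironde eels alone. Its ratios lay between -0.18 and 0.59 in the 10 control and Certes fins, so eel A315 was within their range and the other 2 were far above it. With the sign of the array of eel A306 turned, its mean was -0.054. For contig_17067 the ratios were 2.83, -0.31, 4.91, 3.41 and 3.20 in eels A302 to A315, with a mean of 2.81 ± 0.45 (SE, limma, adjusted p = 2.94e-05). All but eel A305 lay above every control and Certes fin, whose highest ratio was 0.86. Both contig_21121 and contig_6451 were above 0 in all 5 Gironde eels, at 4.74, 3.12, 2.57, 2.26 and 0.81 and at 3.83, 1.11, 4.22, 2.57 and 1.50.

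The lowest Gironde means among the 5 lower members belonged to contig_19602 and contig_16136. For contig_19602 the ratios were -2.10, -3.57, -2.45 and -0.50 in eels A302, A305, A310 and A315, with a mean of -2.15 ± 0.65 (SE, limma, adjusted p = 0.0295). All 4 were below the lowest control or Certes fin, at -0.28. Its call was lost without eel A302, A305 or A310, at means of -2.17, -1.68 and -2.05. The 3 values of contig_16136 were -5.46, -1.31 and 0.83, with a mean of -1.98 ± 0.64 (SE, limma, adjusted p = 0.0490), and the mean without eel A302 was -0.24. Its call was also lost without eel A306, which has no value for it, and without eel A310, at a mean of -2.31.

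In a limma fit of the Gironde arrays alone 0 members passed, with 12 at an unadjusted p under 0.05, against 22 at that unadjusted p in the fit of all 35 fin arrays. Shares over all contigs are not given for that fit or for the unadjusted counts. The drop is therefore not read as particular to the members. With arrays scaled to one spread 10 members were higher and 16 lower, with 7.71% and 9.08% of all contigs, and recentring gave 9 and 6, with 5.49% and 5.39% of all contigs. Without eel A310 there were 7 higher and 1 lower, with 5.69% and 1.72% of all contigs. With the sign of eel A306 turned 2 were higher and 5 lower, with 1.80% and 3.38% of all contigs.

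Set against each other, Gironde and Garonne fins differed in 32 of 77 members by limma, of which 10 were higher in Gironde fins and 22 lower. Over all 526 contigs tested the shares were 27.2% higher and 18.1% lower, against 13.0% and 28.6% of the members. The median difference, Gironde minus Garonne, was -0.93 over members and -0.15 over all contigs. Of the 22 lower members, 16 had passed as higher than the reference in Garonne fins and 3 as lower in Gironde fins, and all 8 members that had passed as higher in Gironde fins were among the 10.

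The largest differences in each direction belonged to contig_14486, contig_26223, contig_4605 and contig_25453. For contig_14486 the Gironde ratios were 2.55, 1.22, 3.14, 2.24 and 1.49, all above the 5 Garonne ratios, whose highest was -0.26. The difference was 3.55 ± 0.43 (SE, limma, adjusted p = 7.56e-07). For contig_26223 the difference was 4.10 ± 0.85 (SE, limma, adjusted p = 0.000354), though eel A315 at 0.28 lay below the highest Garonne value, 0.77, and turning the sign of eel A306 brought the difference to -0.29. In contig_4605 Gironde fins had ratios of -1.29, 0.25, -1.37, 0.06 and 2.00, below both Garonne values, and the difference was -4.87 ± 0.97 (SE, limma, adjusted p = 0.000261). Gironde values of contig_25453 were -1.71, 0.29, -0.71 and 0.94, below all 3 Garonne values, with a difference of -4.76 ± 0.99 (SE, limma, adjusted p = 0.000363).

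After recentring, 6 members were higher and 38 lower, all contigs gave 17.5% higher and 36.9% lower, and the median difference over all contigs was -1.20. With at least 4 values per site only 35 members could be tested, of which 6 were higher and 6 lower, where 35.8% of all contigs were higher and 13.0% lower. With the sign of eel A306 turned 5 were higher and 18 lower, where all contigs gave 16.9% and 14.4%.

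**Figure D5:**
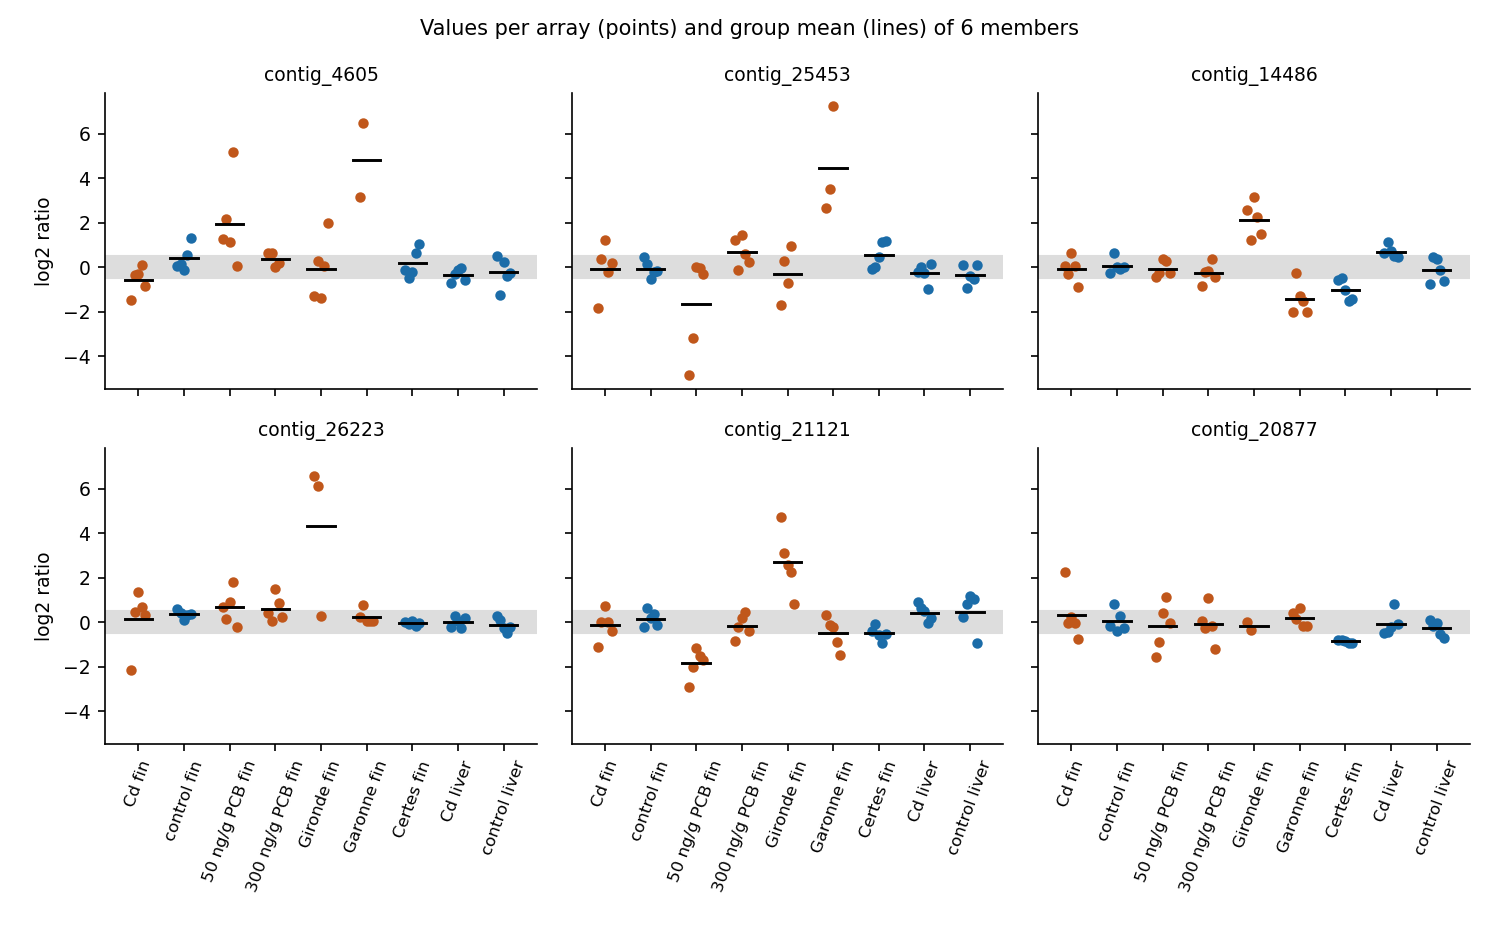
Log2 ratio per array (points) and group mean (lines) of 6 members in the 9 groups; the grey band is the window from -0.5 to 0.5, blue groups entered the rule and orange groups did not. Garonne values of contig_25453 stand above all its other values, 50 ng/g PCB fish 28 of contig_4605 lies between its 2 Garonne values, contig_14486 and contig_21121 are high in Gironde fins, contig_26223 has 2 high Gironde values and 1 near 0, and the group means of contig_20877 lie in the window except in Certes fins, though single arrays reach 2.24.

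PCB-fed eels gave few member calls. At 50 ng/g, 1 of 80 members passed limma's test against the reference and it was lower, a share of 1.25%, where 0.407% of all 984 contigs tested were lower. That member, contig_21121, had ratios of -2.93, -2.00, -1.15, -1.51 and -1.70, all below 0. Of its values in the other fin groups only that of Garonne eel A365, at -1.49, lay in that range. Its mean was -1.86 ± 0.37 (SE, limma, adjusted p = 0.00517), while in Gironde fins its mean was 2.70. The call was lost without fish 25, at -1.59, in a fit of this group alone, after recentring, at -1.77, and with the sign of the array of fish 26 turned, at -1.06. The median 50 ng/g mean was -0.18 over members and 0.09 over all contigs, and with the sign of fish 26 turned the members' median was 0.20.

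At 300 ng/g, 0 of 79 members passed limma's test against the reference, and 6 had an unadjusted p under 0.05. Of all 906 contigs tested 10.6% were higher and 15.5% lower by adjusted p. Their share at that unadjusted p is not given, so the 6 is not read as particular to the members. The median 300 ng/g mean was 0.29 over members and -0.04 over all contigs. The 2 members with the smallest p did not pass. In contig_39242 the ratios were 0.63, 0.13, 6.52, 0.50 and -0.15, so that fish 33 set the mean of 1.53 ± 0.59 (SE, limma, adjusted p = 0.0525). In contig_6451 all 5 ratios were below 0, at -1.14, -1.61, -1.85, -0.40 and -0.27, with a mean of -1.05 ± 0.41 (SE, limma, adjusted p = 0.0551). With Cd fish 45 and all Gironde and 50 ng/g PCB arrays left out, 9 members were higher and 1 lower, where 18.5% of all contigs were higher and 17.4% lower. Fish 33 stayed in that fit. After recentring 8 were higher, with 13.8% of all contigs higher and 10.8% lower, and without fish 35 the count was 3 higher and 1 lower, with 11.1% and 20.6% of all contigs.

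Between the doses, 1 of 79 members passed limma's test of 300 ng/g minus 50 ng/g and was higher at 300 ng/g, 1.27%, where 5.22% of all 900 contigs tested were higher. It was contig_21121 again, with ratios of -0.86, -0.21, 0.18, 0.47 and -0.38 at 300 ng/g, each above all 5 at 50 ng/g. The difference was 1.70 ± 0.52 (SE, limma, adjusted p = 0.0257). The call was lost without fish 25 or 26 at 50 ng/g, at 1.43 and 1.66, and without fish 33 or 34 at 300 ng/g, at 1.61 and 1.54. The median difference was 0.26 over members and -0.10 over all contigs.

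In Cd fins 1 of 80 members passed limma's test against the reference, and it was higher, 1.25%, where 4.96% of all 988 contigs tested were higher. That member, contig_15923, had ratios of 5.19, 0.67, 1.54, 1.12 and 0.42 in fish 45 and 47 to 50, with a mean of 1.79 ± 0.54 (SE, limma, adjusted p = 0.0317). All 5 were above 0, and 3 of them, 5.19, 1.54 and 1.12, were above its highest control or Certes fin, at 0.95. Without fish 45 the mean was 0.94 and the call was lost, and it was also lost without fish 48 or 49, at 1.85 and 1.96. The same contig was higher in Garonne fins, at 1.07, 1.61, 0.59, 1.59 and 2.42. At 300 ng/g PCBs its 4 ratios ran from 1.12 to 1.44, with a mean of 1.31 and an SD of 0.15. All 4 were above 0.95, but the contig did not pass limma's test against the reference at that dose. Eels fed 50 ng/g had a mean of -0.33 over 3 values, and Gironde eels had 0.45 over 4. Raised ratios of this contig were thus not particular to Cd. The median Cd mean was -0.08 over members and 0.08 over all contigs.

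Over the 5 tests against the reference, which share the same pool, 34 members passed at least 1 and 46 passed none. That is 42.5% of the members, against 62.0% of the other 432 contigs and 47.6% of all 992 contigs. These shares were not tested against each other. All members and the other 432 contigs had enough values for the Garonne test, but only 563 of the 992 contigs did. The 47.6% is therefore not a like-for-like background. Members had been chosen near the reference in control and Certes fins, so fewer calls in other fins can follow from the choice.

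The comparisons the study drew with control or Certes fins, and between liver groups, use arrays that chose the members, so their counts are given as values from which nothing is read. Limma called 0 of 80 members for Cd minus control fins, with 1 at an unadjusted p under 0.05, and 0% of all 951 contigs, with 75 at that unadjusted p. For 300 ng/g PCB minus control fins it called 0 of 79 members, with 0 at an unadjusted p under 0.05, and 0% of 882 contigs, with 39. For control minus Certes fins it called 0 of 80 members, with 1, and 0% of 876 contigs, with 50. For Cd minus control livers it called 0 of 80 members, with 4, and 0% of 897 contigs, with 73. For the Cd effect in fin minus that in liver it called 0 of 80 members, with 5, and 0% of 868 contigs, with 67.

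In the other comparisons of this kind limma made calls. For 50 ng/g PCB minus control fins 1 of 80 members was lower, contig_21121 at -2.02 ± 0.52 (SE, adjusted p = 0.0141), beside 2.96% of all 947 contigs. For Gironde minus Certes fins 11 of 77 members were higher and 0 lower, beside 10.8% of 850 contigs higher. Recentring turned that split to 9 higher and 15 lower, beside 5.76% and 18.9% of all contigs, and scaling to 11 higher and 9 lower, beside 12.6% and 13.9%. The largest were contig_26223, at 4.38 ± 0.85 (SE, adjusted p = 0.000561), and contig_21121, at 3.20 ± 0.52 (SE, adjusted p = 5.56e-05). For Garonne minus Certes fins 7 of 80 members were higher and 0 lower, beside 3.77% of 530 contigs higher, and without Garonne eel A360 or A362 the count was 3 higher, beside 2.70% and 2.41% of all contigs. The largest were contig_4605, at 4.63 ± 0.97 (SE, adjusted p = 0.00324), and contig_17367, at 4.05 ± 1.05 (SE, adjusted p = 0.0171). Garonne values of contig_17367 were 1.31 and 7.22. With the deposited values, the shares of all contigs lower than in Certes fins are not given for Gironde or Garonne fins. The counts of 0 lower are therefore not read as particular to the members.

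The members with the smallest p in the comparisons without calls did not pass. In Cd fins contig_25585 had ratios of -4.67, -0.22, -1.92, -0.83 and -0.13, against -0.20, -0.02, -0.48, 0.88 and 1.41 in control fins. The difference was -1.87 ± 0.80 (SE, limma, adjusted p = 0.592), and the groups overlapped. In Cd livers contig_36215 had ratios of 0.13, 0.21, 0.22, 0.10 and -0.31, against -0.14, -0.86, -0.79, -1.20 and -0.82 in control livers. The difference was 0.84 ± 0.24 (SE, limma, adjusted p = 0.461), and only Cd fish 50 lay below control fish 6. For contig_16299 Cd livers were at 0.11, -0.15, -0.04, 0.21 and -0.20 and control livers at -1.43, -0.79, -0.63 and -0.39, without overlap, and the difference was 0.80 ± 0.27 (SE, limma, adjusted p = 0.461).

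Over all 45 arrays the members nearest the reference, by their root mean square ratio among members with at least 40 values, were contig_20877, contig_15113, contig_9226 and contig_1122. Of these, contig_20877 and contig_1122 were the 2 members with every one of the 5 unused group means in the window. The group means of contig_20877 were 0.33 in Cd fins, -0.19 and -0.10 in 50 and 300 ng/g PCB fins, -0.17 in Gironde fins and 0.17 in Garonne fins. Its Certes fins lay together at -0.80, -0.81, -0.84, -0.95 and -0.94, apart from its control fins at -0.40 to 0.83, and the rule's mean over both groups fell in the window. For contig_1122 the means were -0.01 in Cd fins, 0.09 and 0.10 at the 2 PCB doses, 0.20 in Gironde fins and -0.49 in Garonne fins, and the Gironde values ran from -1.56 to 3.14. Gironde fins of contig_15113 had 2 values, 2.28 and 2.07, and its other 4 unused group means lay between -0.16 and 0.14. This contig passed limma's test against the reference as higher in Gironde fins. Certes means also lay outside the window in contig_15113, at -0.70, and in contig_1122, at -0.55.

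The most variable members on the 25 unused fin arrays were contig_25453, contig_18181, contig_4605 and contig_15765. In contig_18181 50 ng/g PCB fish 28 stood at 8.23, while the other 4 fish of that group ran from -1.87 to 1.03 and the 10 control and Certes fins from -0.90 to 0.24. In contig_15765 Cd fish 45 stood at 5.40 and the other 4 Cd fish between -0.42 and -0.06, and Gironde eels A306 and A315 stood at -3.53 and 4.56. In liver both contigs stayed between -0.96 and 1.15 on all 10 arrays.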

How the data were processed

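The values analysed were the authors' deposited log2 ratios of 992 contigs on 45 arrays. Every array has a median of 0, so the arrays had been centred before deposit. Background correction, spot filters and any further normalization by the authors have no description in the sources used here. A deposited table of scanner values with 180 value columns was not used, because its columns could not be tied to samples. Groups and fish numbers came from the sample titles. Missing values were not filled in.

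The functions lmFit and eBayes of limma 3.58.1, run in R 4.3.3, gave a mean per group from 35 fin arrays, from 10 liver arrays, and from 20 arrays of Cd and control eels for the difference between the Cd effects. Contigs entered a test with at least 2 values in every group compared. All 15 comparisons used two-sided tests, adjusted by Benjamini-Hochberg over the contigs tested, and a threshold of 0.05. The reference pool has no spread of its own in the tests against 0. Each contig has 1 variance for all groups of a fit, although the groups differed in spread. The median SD of a member within a group was 1.44 in Gironde fins and 0.39 in Certes fins. The fit was checked on simulated data. The number of arrays limits the precision.

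Members, the contigs named and the alternatives were chosen with earlier results of these data known. Per comparison at most 2 members higher and 2 lower were named, by the largest difference among those past the threshold, or the 2 smallest p where none passed. Added to these were the 4 steadiest and the 4 most variable members. Other contigs named were chosen after their values were seen. Fish numbers were not taken as pairs in the main fit, because no label says that fin and liver arrays with the same number share an eel. Such arrays deviated from their group means with correlations of -0.19 to 0.17. These cannot decide the question, because fin and liver of the same eel need not deviate alike. Alternatives were recentring on complete contigs, scaling, quantile normalization, at least 4 values, array weights, fits of only the compared groups, turned signs of 2 arrays, a block for fish number, each array left out and other windows. A fit that leaves out Cd fish 45 and all Gironde and 50 ng/g PCB arrays, and a stricter membership, were added after the data were seen.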

Additional observations from a re-analysis of the deposited data

Results flagged for a closer look

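Among 66 sets of 4 or 5 values, 9 held 1 value that stood apart from the rest of its group by Dixon's ratio at the 95% level, where chance gives about 1 in 20 in sets not chosen by their values. Of these, 3 were numbers of members with a value, with 70 in Cd fin fish 45, against 80 in each of the other Cd fins, 51 in 300 ng/g PCB fish 33, against 78 to 80 in the others of that group, and 41 in Gironde eel A306, against 62 to 66. The median of the members was 1.28 in Gironde eel A315, against -0.64 to -0.12 in the other 4 eels. Among the contigs named, contig_39242 was at 6.52 in 300 ng/g PCB fish 33, contig_15923 at 5.19 in Cd fin fish 45 and contig_26223 at 0.77 in Garonne eel A359. In contig_36215 Cd liver fish 50 was at -0.31, and in contig_26329 control fin fish 9 was at 1.29. Contigs named for large means can hold such values through that choice, so 9 of 66 is not read as an excess. The list is also not complete. It does not hold contig_17367 in the liver of control fish 9, at 11.1.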

How the results depend on the processing

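Calls of members depended on the setting in every comparison that had any, and the cause was not tested except where a setting itself removes arrays or contigs. The number of members was 80 by the rule, 19 with a window of 0.25, 260 with a window of 1, 50 where the control and Certes fin means each had to lie in the window, 50 where the Cd and control liver means each had to, 18 where every single value had to be within 1, and 70 to 84 with 1 array left out. Members past the threshold are counted by setting. The arrays that stand apart is used here as a label for Cd fish 45 and all Gironde and 50 ng/g PCB arrays, which were left out together. Not each of them stood apart, since in 50 ng/g PCB fish 29 83.75% of the member values lay within 0.5 of the reference. The array of 300 ng/g PCB fish 33, flagged above, stayed in that fit. Shares over all contigs stand in the sections above for part of these settings and are not given for the rest. The changes in count are therefore not read as particular to the members. In Garonne fins 22 became 47 after recentring, 12 after scaling, 12 after quantile normalization, 12 with at least 4 values, 38 without the arrays that stand apart, and 15 to 18 with 1 array left out. In Gironde fins 13 became 26 after scaling, 7 with at least 4 values, 24 with array weights, 0 in a fit of that group alone, 7 with the sign of eel A306 turned, and 8 to 16 with 1 array left out. For Gironde minus Garonne 32 became 12 with at least 4 values and 18 in a fit of the 2 groups alone, with 26 to 37 when 1 array was left out. In 50 ng/g PCB fins 1 became 0 after recentring, 3 after scaling, 6 after quantile normalization, 0 in a fit of that group alone, 0 with the sign of fish 26 turned, 0 without fish 25 and 4 without fish 29. In 300 ng/g PCB fins 0 became 8 after recentring, 6 with array weights, 1 in a fit of that group alone and 10 without the arrays that stand apart, with 0 to 4 when 1 array was left out (1 without fish 32, 4 without fish 35). In Cd fins 1 became 2 after quantile normalization, 2 with array weights, 0 in a fit of that group alone and 3 without the arrays that stand apart, with 0 to 1 when 1 array was left out (0 without fish 45, 48 or 49). For 300 minus 50 ng/g PCB 1 became 0 after scaling, 4 with array weights, 0 in a fit of the 2 groups alone and 0 with the sign of fish 26 turned, with 0 to 3 when 1 array was left out. Among comparisons with arrays of the rule, for Gironde minus Certes 11 became 24 after recentring, 20 after scaling, 19 after quantile normalization, 6 with at least 4 values, 23 with array weights and 3 with the sign of eel A306 turned, for Garonne minus Certes 7 became 2, 3 and 2 after scaling, quantile normalization and at least 4 values, 19 with array weights, 13 in a fit of the 2 groups alone, 25 without the arrays that stand apart and 3 to 7 with 1 array left out, and for 50 ng/g PCB minus control 1 became 2 after scaling, 2 after quantile normalization, 2 with array weights, 0 with the sign of fish 26 turned and 1 to 2 with 1 array left out. With the sign of Gironde eel A306 turned, contig_26223 reversed to -0.054 against the reference, -0.29 against Garonne and -0.0081 against Certes fins. Of 480 values of named contigs under other settings, 428 kept direction and side of the threshold, 42 lost a call, 7 gained one and 3 reversed. With fish number as a replicate block, limma called 0 of 80 members for the Cd effect in fin minus that in liver, with 3 at an unadjusted p under 0.05, against 5 without the block, where it also called 0. The share of member values within 0.5 on the 25 unused arrays was 45.5% with the deposited values, against 34.5% in the other contigs. It was 38.9%, against 33.2%, after recentring and 44.7%, against 33.8%, after scaling.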

Other observations

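Of the 2 members with none of the 5 unused group means in the window, contig_17067 is described among the Gironde results. The other, contig_21235, chosen after its values were seen, had group means of -0.88 in Cd fins, -0.93 and -0.77 in 50 and 300 ng/g PCB fins, 0.67 in Gironde fins and 1.00 in Garonne fins, and passed none of the 5 tests against the reference by limma. Its mean was below the reference in all 3 exposed laboratory groups, but also in control fins, at -0.08, and in Certes fins, at -0.60. In both river groups the mean was above the reference, but single ratios lay on both sides of 0. They were -0.41, 0.71, -0.07 and 2.44 in Gironde eels A302, A305, A310 and A315, and -0.56 to 3.32 in Garonne eels.

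In contig_35480 all 5 fish at 50 ng/g PCB were above the reference, at 0.77, 1.52, 1.48, 3.05 and 0.76, and the 3 Gironde eels with a value were below it, at -0.75, -1.43 and -0.84. Its means were also above the reference in 300 ng/g PCB fins, at 0.88, Garonne fins, at 1.06, and Certes fins, at 0.78. They were below it in control fins, at -0.13, and Cd fins, at -0.17. This contig passed none of the 5 tests against the reference by limma. For contig_26329 all 5 Cd fins were below the reference, at -1.34, -0.01, -0.72, -0.49 and -0.38, and all 5 Cd livers were above it, at 0.90, 0.62, 0.76, 0.97 and 0.32. The difference between its Cd effects in fin and in liver was -1.31 ± 0.51 (SE) and did not pass limma's test (adjusted p = 0.589).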
